A study of Lytechinus variegatus with 9 samples.

Results

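Genes named for digestive and lysosomal hydrolases were examined in embryos of the sea urchin *Lytechinus variegatus*. A gene was taken when its description in the count table named a cathepsin, trypsin, elastase, carboxypeptidase, lipase, amylase, maltase, sucrase, aminopeptidase or chitinase, phospholipases were left out, and at least 30 counts were required over the 9 libraries. The words matched 195 genes, and 169 of the 26814 genes in the table had enough counts. Of the 26 genes below the minimum, the highest had 27 counts and 7 had no count, and the lowest of the 169 had 31.

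The names were checked against the protein domains that the count table lists. Of the 169 genes, 71 belonged to 7 classes of digestive enzymes, and 69 of these 71 carried the domain of their class. A further 16 were lysosomal peptidases, 13 cysteine cathepsins and 3 serine carboxypeptidases, all with the domain. The remaining 82 genes were in classes not counted here as digestive or lysosomal. They included 15 tubulin polyglutamylases and ornithine transcarbamylases, whose names hold the letters of amylase inside another word, and 13 neurotrypsin-like genes, of which 12 listed no trypsin domain. Protease inhibitors, intracellular aminopeptidases and carboxypeptidases that act on tubulin made up much of the rest. It also held 9 lipases of other kinds and 3 chitinase-named genes, 1 of them with the domain of its class. The label of the gene group was therefore taken to hold for 87 of the 169 genes, and the results below are given mainly for those 87.

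The embryos were wild type. They were treated with 1 µM K02288, an inhibitor of type I BMP receptors, with 75 nM axitinib, an inhibitor of VEGF receptors, or with DMSO, the carrier, in artificial seawater from 18 to 20 hours post-fertilization until collection at the pluteus stage at 2 days, at 21 °C. RNA of whole embryos was sequenced from 3 separate matings, and each mating gave 1 library per treatment (n = 3). The drugs bathed the whole embryo and the RNA came from the whole embryo, so that all tissues were exposed and mixed.

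The pluteus is the feeding larva of sea urchins, and its gut is divided into foregut, midgut and hindgut. Secreted trypsins and pancreatic-type carboxypeptidases cut dietary protein, pancreatic lipases cut dietary fat and alpha-amylases cut starch. Aminopeptidases, maltases and sucrases finish digestion at the surface of gut cells in vertebrates. Cathepsins L and B are papain-like cysteine proteases that degrade protein in the acid interior of lysosomes.

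Library totals ran from 9359212 to 11815263 counts, and the 169 genes took between 0.938% and 1.114% of them. A gene without a count in a library could still hold up to 3 counts there, a limit that covers counting error only. Libraries of the same mating deviated together, so each comparison was fitted both without and with the mating as a term. Lists of markers of gut, primary mesenchyme, pigment cells, muscle, neurons and ciliated ectoderm were all detected, with 1 muscle gene lacking counts. In RNA of whole embryos, fewer cells of a type and less RNA per cell cannot be told apart.

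The 169 genes differed widely in level, with 37 under 1 FPKM in DMSO-treated embryos and 7 at 100 FPKM or more. FPKM, counts per gene length and library size, is used here to compare genes. Among the digestive genes the carboxypeptidase B-like gene LOC121409234 stood highest in DMSO-treated embryos at 410 ± 63.0 FPKM (SD, n = 3), followed by the trypsin-2-like gene LOC121406373 at 380 ± 125 FPKM, whose spreads overlapped. The aminopeptidase N-like gene LOC121411282, at 155 ± 14.9 FPKM, and the glutamyl aminopeptidase-like gene LOC121431674, at 149 ± 28.4 FPKM, were likewise within each other's spread. The lysosomal genes were led by the procathepsin L-like gene LOC121410556 at 375 ± 124 FPKM, well above the cathepsin L-like gene LOC121418490 at 70.7 ± 11.6 FPKM. LOC121410556, LOC121411282, LOC121431674, LOC121409234 and LOC121406373 together held 45.9% of the counts of all 169 genes. By class, the median in DMSO-treated embryos was 24.0 FPKM for the 5 maltases and sucrases, 14.5 FPKM for the 21 pancreatic-type carboxypeptidases, 11 FPKM for the 13 cysteine cathepsins, 8.57 FPKM for the 17 pancreatic lipases and 0.69 FPKM for the 13 membrane aminopeptidases.

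**Figure D1:**
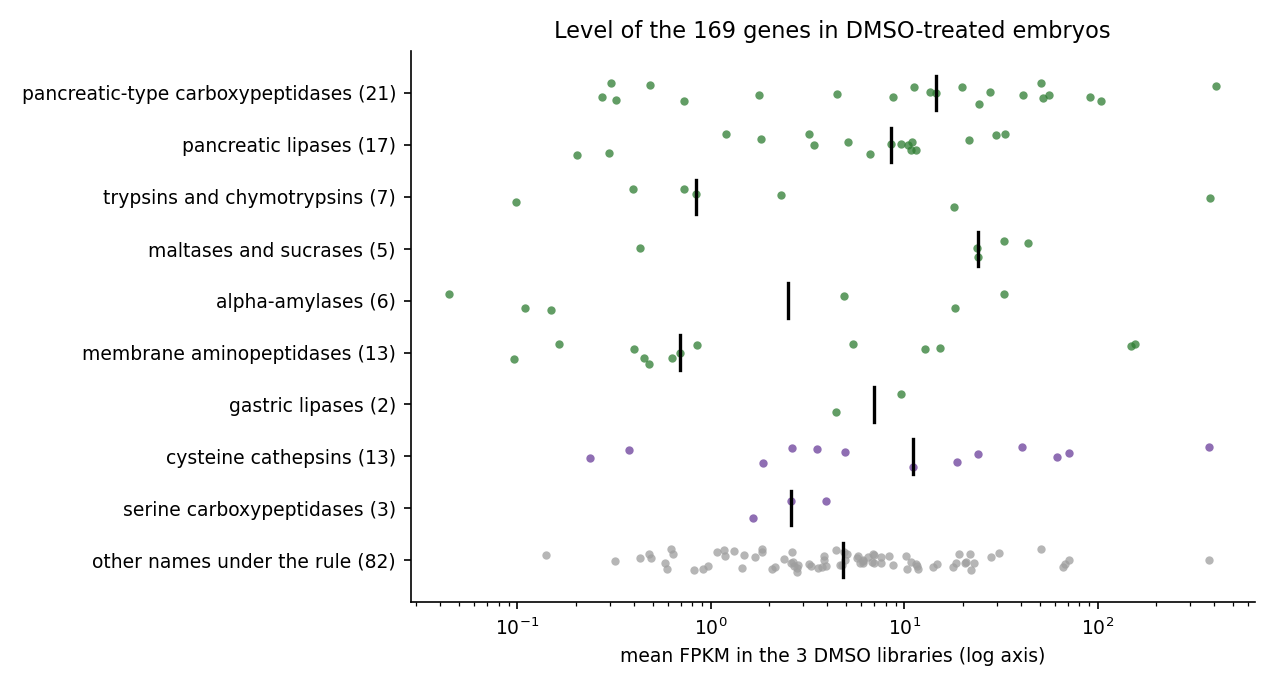
Each point is 1 of the 169 genes, placed by its mean FPKM in the 3 DMSO libraries on a log axis and by its enzyme class, with the number of genes in brackets and a black bar at the class median. Green marks digestive classes, purple lysosomal classes and grey the 82 other names; within the pancreatic-type carboxypeptidases the level ran from 0.274 to 410 FPKM.

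Many of these genes lay beside a gene of the same class. Of the 71 digestive genes, 33 had another gene of their class within 100 kb. The pancreatic-type carboxypeptidases were found mainly on chromosome 2 (15 of 21), and 16 of the 21 had such a neighbor. One group of 4 spanned chr2:58098759-58162907 and another group of 4 spanned chr7:31457985-31582395 (assembly Lvar_3.0, RefSeq annotation). Of the 17 pancreatic lipases, 10 were on chromosome 12 and 12 had a neighbor of their class. Reads from near-identical copies could have been divided among such neighbors, so the values of single genes within a group are uncertain.

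K02288 changed few of these genes, in numbers mostly near the share over all genes. The pancreatic lipase-related protein 2-like gene LOC121425506 fell, the procathepsin L-like gene LOC121410556 rose slightly once the mating was in the fit, and the large majority of the digestive genes passed no test. In the fit without the mating, called when the unadjusted p did not exceed 0.05, 2 of the 152 genes tested were lower than in DMSO-treated embryos and 1 was higher, where 1.23% of all genes tested were lower and 1.22% higher. With the mating as a term and an adjusted p under 0.05 (edgeR, Benjamini-Hochberg over all genes), 3 were lower and 3 higher, against a background of 1.05% and 1.83%. Without the mating none reached that adjusted threshold (0.00614% of all genes were lower and 0 were higher). With the mating and the unadjusted threshold, 7 were lower and 16 higher, where 5.9% and 7.26% of all genes were. The K02288 libraries were all below the DMSO libraries in 3 genes and above them in 5, where 3.51% and 3.28% of all genes did not overlap in these directions. The median log2 fold change of the 152 genes was 0.05, beside 0.01 over all genes. The counts with the mating depended on single libraries. Lower genes numbered 5 without K02288 replicate 1 and 5 without DMSO replicate 1, and higher genes 7 without K02288 replicate 1, 8 without DMSO replicate 1 and 1 without DMSO replicate 2. Without the mating, no gene was lower without DMSO replicate 1, 1 was lower without K02288 replicate 2, K02288 replicate 3 or DMSO replicate 3, 4 were higher without K02288 replicate 1, and none was higher without K02288 replicate 2 or DMSO replicate 1.

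LOC121425506 (chr12:31863671-31879187) carries the lipase domain of enzymes that cut dietary triglycerides. It had 897, 873 and 558 normalized counts in K02288-treated embryos, 862, 553 and 618 in axitinib-treated embryos and 1532, 1118 and 1082 in DMSO-treated embryos, in the order of matings 1 to 3. Every library of either drug lay below every DMSO library. The log2 fold change was -0.68 (SE 0.23) with K02288 and -0.88 (SE 0.22) with axitinib. The adjusted p was 1 and 0.444 without the mating and 0.00206 and 4.51e-05 with it (edgeR). Without DMSO replicate 1, the K02288 change no longer passed the unadjusted threshold, at a log2 fold change of -0.50. The 3 DMSO libraries served in both comparisons, and the direct comparison of K02288 with axitinib gave 0.19 (SE 0.13 with the mating, adjusted p = 0.477). An echinonectin gene on the other strand overlaps LOC121425506 and had at most 41 counts in any library.

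The other calls with K02288 were a pancreatic triacylglycerol lipase, a carboxypeptidase and 3 genes outside the digestive classes. The pancreatic triacylglycerol lipase-like gene LOC121424578 (chr11:31843996-31864487) had 266, 248 and 630 normalized counts in K02288-treated embryos, 85.0, 166 and 230 in axitinib-treated embryos and 213, 152 and 314 in DMSO-treated embryos. The K02288 and DMSO ranges overlapped, but within each mating the K02288 library was the higher. Its log2 fold change against DMSO with the mating was 0.69 (SE 0.14, adjusted p = 0.0122), and when single libraries were left out the adjusted p reached 0.14, without the libraries of mating 3. The xaa-Pro aminopeptidase 1-like gene LOC121414113 (chr4:43075399-43098537), an enzyme of a family that removes amino acids before proline, had 169, 316 and 223 normalized counts in K02288-treated embryos, 95.5, 171 and 155 in axitinib-treated embryos and 118, 167 and 154 in DMSO-treated embryos. All 3 K02288 libraries were above all DMSO libraries, with a log2 fold change of 0.66 (SE 0.15, adjusted p = 0.0231) with the mating, and 4 of 6 fits without a library kept the call (adjusted p up to 0.223). The carboxypeptidase B-like gene LOC121408692 is described with the matings below, since 1 DMSO library set its value.

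With the mating in the fit, axitinib treatment lowered 4 pancreatic lipases and 2 pancreatic-type carboxypeptidases, 1 of them through a single DMSO library, and raised 3 cysteine cathepsins. Without the mating and unadjusted, 7 of the 151 genes tested were lower than in DMSO-treated embryos and 3 higher, where 3.07% of all genes were lower and 1.77% higher. With the mating, 8 were lower and 8 higher after adjustment, against a background of 3.44% and 2.79%. With the mating and unadjusted, 25 were lower and 19 higher, where 8.87% and 8.96% of all genes were. The axitinib libraries lay wholly below DMSO in 9 genes and wholly above in 8, where 5.59% and 4.59% of all genes did. Over all 151 genes the median log2 fold change was -0.01, beside 0.01 over all genes, but the classes lay on different sides. It was -0.28 for the 59 digestive genes tested, of which 38 were below 0, and 0.38 for the 14 lysosomal genes, of which 9 were above 0. For the 78 other names it was 0.03. The digestive genes below 0 were mostly pancreatic lipases (14 of 15 tested) and pancreatic-type carboxypeptidases (16 of 18), and the other digestive classes had medians above 0. Among the lysosomal genes the median was 0.19 for the cysteine cathepsins (6 of 11 above 0) and 0.62 for the serine carboxypeptidases (3 of 3). Counts of lower genes with the mating were 14 without axitinib replicate 2, 13 without DMSO replicate 2, and 5 without axitinib replicate 3 or DMSO replicate 3. Counts of higher genes with the mating were 2 without axitinib replicate 2, axitinib replicate 3 or DMSO replicate 3 and 3 without DMSO replicate 2. In the fit without the mating, 13 were lower without DMSO replicate 2, 7 were higher without DMSO replicate 1, and 1 was higher without axitinib replicate 2, DMSO replicate 2 or DMSO replicate 3.

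**Figure D2:**
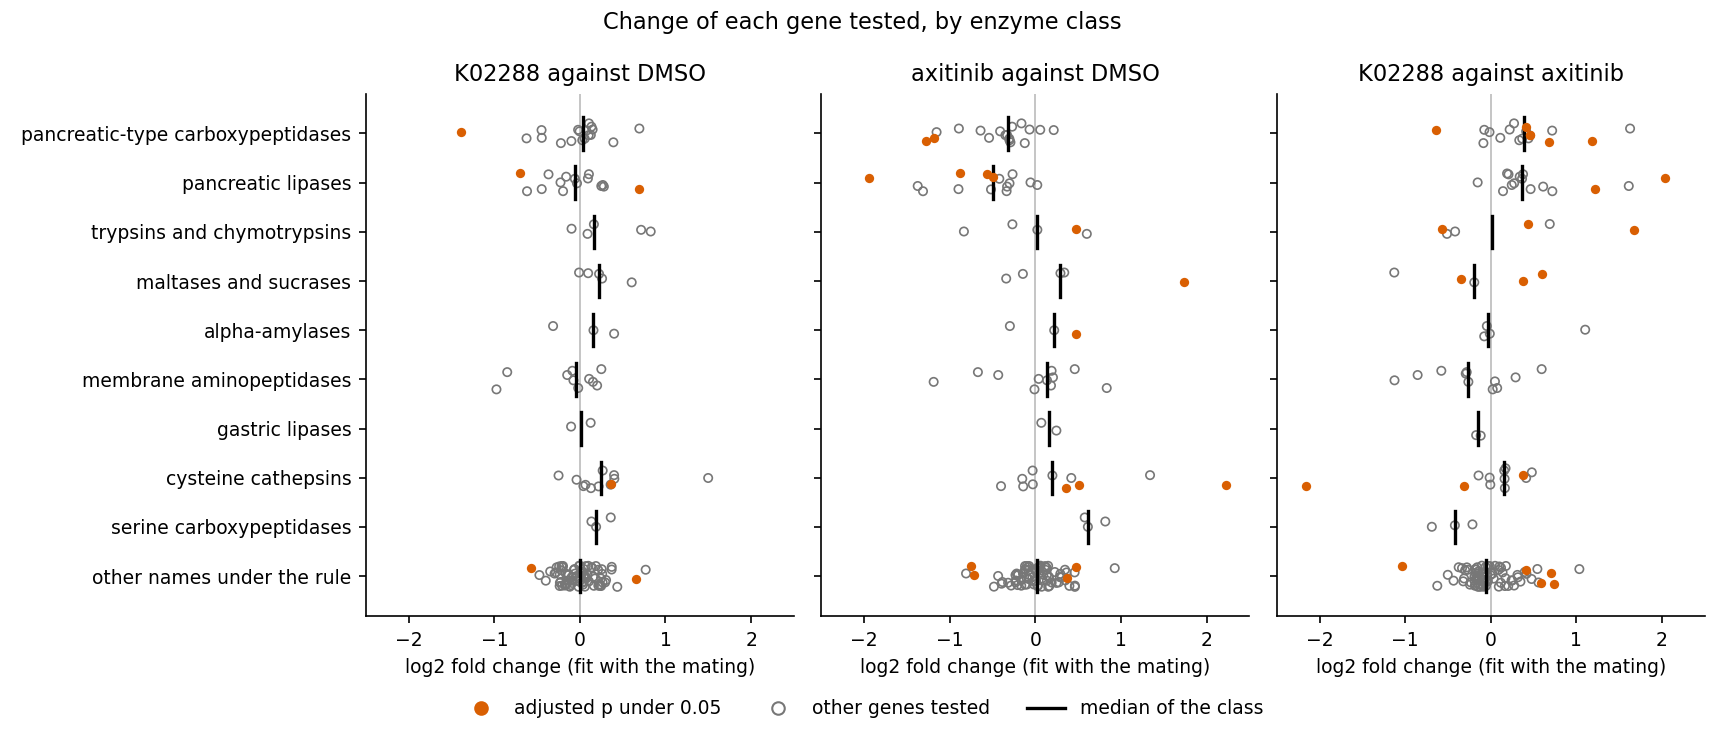
Each point is the log2 fold change of 1 gene tested, from the fit with the mating, by enzyme class and for the 3 comparisons. Orange points had an adjusted p under 0.05 and black bars are class medians. With axitinib the bars of the pancreatic lipases and pancreatic-type carboxypeptidases lay at -0.49 and -0.32, and with K02288 at -0.06 and 0.04.

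The pancreatic lipases had a median log2 fold change of -0.50 with axitinib, against -0.06 with K02288. With axitinib 14 of the 15 tested were below 0, the exception being LOC121424064 at 0.01, which was picked out after its value was seen. Of the 15, 3 were lower at the unadjusted threshold without the mating, where 3.07% of all genes were. After adjustment with the mating, 4 were lower and none higher, where 3.44% of all genes were lower and 2.79% higher. Unadjusted and with the mating, 11 were lower and none higher, where 8.87% and 8.96% of all genes were. The summed share of the 17 lipase genes was 0.0340%, 0.0239% and 0.0342% of all counts in K02288-treated embryos, 0.0265%, 0.0189% and 0.0245% in axitinib-treated embryos and 0.0404%, 0.0294% and 0.0363% in DMSO-treated embryos. All axitinib libraries lay below all DMSO libraries, and the K02288 libraries overlapped both.

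Of the 4 lipases called, the largest fall was that of LOC121425673, a pancreatic lipase-related protein 2-like gene at chr12:8296677-8302465. It had 263, 56.5 and 118 normalized counts in K02288-treated embryos, 58.8, 25.2 and 17.8 in axitinib-treated embryos and 227, 82.2 and 82.7 in DMSO-treated embryos. Every axitinib library lay below every DMSO library. Its log2 fold change with axitinib was -1.94, with SE 0.58 and adjusted p = 0.611 without the mating and SE 0.24 and adjusted p = 8.36e-05 with it. Without DMSO replicate 1, it no longer passed the unadjusted threshold in the fit without the mating. LOC121430756 (chr17:161200-168859), another pancreatic lipase-related protein 2-like gene, had 402, 299 and 393 normalized counts in axitinib-treated embryos against 509, 449 and 674 in DMSO-treated embryos, without overlap. Its log2 fold change was -0.57 (SE 0.12, adjusted p = 0.00901) with the mating, and that call was lost without axitinib replicate 3 or DMSO replicate 3 (adjusted p up to 0.152). LOC121425432, a pancreatic triacylglycerol lipase-like gene at chr12:13355435-13360206, reached -0.49 (SE 0.14, adjusted p = 0.0429), with overlapping groups, and kept the call in 1 of 6 fits without a library (adjusted p up to 0.215).

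The pancreatic-type carboxypeptidases, which remove amino acids from the end of peptides, had a median log2 fold change of -0.34 with axitinib and 0.03 with K02288. With axitinib 16 of the 18 tested were below 0. Without the mating and unadjusted, LOC121408758 and LOC121408467 were lower and none was higher, where 3.07% of all genes were lower. With the mating and after adjustment, LOC121408758 and LOC121408672 were lower and none was higher, where 3.44% of all genes were lower, and LOC121408672 rested on DMSO replicate 3. The 2 above 0 were LOC121408691 at 0.08 and LOC121418928 at 0.05, the second picked out after its value was seen. The summed share of the 21 genes was 0.177%, 0.156% and 0.182% of all counts in K02288-treated embryos, 0.131%, 0.133% and 0.122% in axitinib-treated embryos and 0.187%, 0.150% and 0.184% in DMSO-treated embryos. Here too all axitinib libraries lay below all DMSO libraries, and also below all K02288 libraries. Much of this share and of its fall was that of LOC121409234 and LOC121408758.

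LOC121408758 (chr2:67898591-67909492), a carboxypeptidase B-like gene with the zinc carboxypeptidase domain and the activation peptide of a secreted zymogen, fell most clearly. It had 1515, 1115 and 1846 normalized counts in K02288-treated embryos, 669, 619 and 647 in axitinib-treated embryos and 1915, 1255 and 1584 in DMSO-treated embryos. The axitinib libraries were close together and far below all others, a fall to a level 2.46-fold lower than in DMSO-treated embryos. The log2 fold change was -1.30 (SE 0.18, adjusted p = 0.0607) without the mating and -1.28 (SE 0.11, adjusted p = 2.98e-06) with it, and it lay between -1.44 and -1.14 when any 1 library was left out. With K02288 the log2 fold change was -0.09 (SE 0.23). LOC121408467 (chr2:58130808-58162907), from the group of 4 on chromosome 2, had 932, 946 and 700 normalized counts in axitinib-treated embryos against 1250, 1009 and 1159 in DMSO-treated embryos, without overlap. Its log2 fold change of -0.41 (SE 0.17) passed the unadjusted threshold, while its adjusted p with the mating was 0.0504. The unadjusted call was lost without the axitinib or DMSO library of mating 1 or 3, with log2 fold changes of -0.49 to -0.28 over the 6 omissions, and the adjusted p with the mating then reached 0.519. The most abundant gene of the class, LOC121409234 (chr2:81226133-81239576), had 6813, 7496 and 5579 normalized counts in axitinib-treated embryos against 9725, 8066 and 7229 in DMSO-treated embryos. These groups overlapped, and its log2 fold change of -0.33 (SE 0.10, adjusted p = 0.0632 with the mating) was not called.

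**Figure D3:**
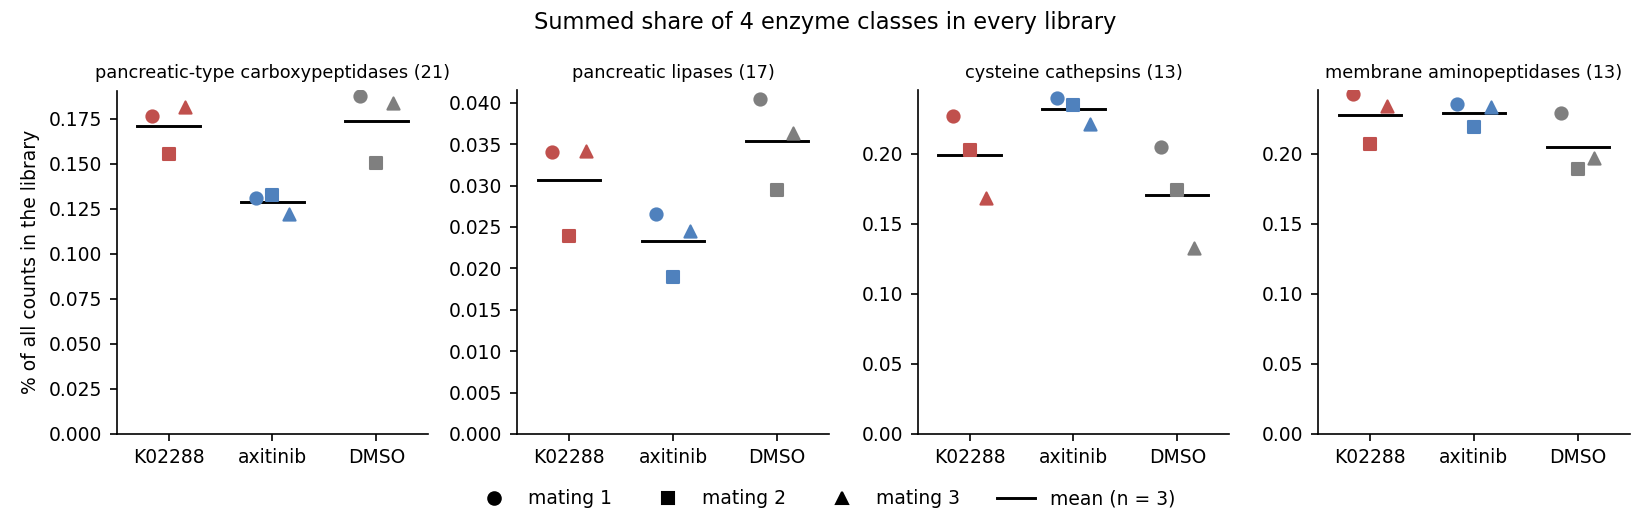
The summed counts of 4 enzyme classes are shown as a percentage of all counts in each of the 9 libraries, with symbols for the mating and a bar at the mean of 3. In the pancreatic-type carboxypeptidases the axitinib libraries lay between 0.122% and 0.133%, below all K02288 and DMSO libraries. In the cysteine cathepsins they lay between 0.221% and 0.240%, above all DMSO libraries, a gap that rested on the procathepsin L-like gene LOC121410870.

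The other digestive classes had medians above 0 with axitinib, though most held genes on both sides. The median log2 fold change was 0.31 for the maltases and sucrases (3 of 5 above 0) and 0.16 for the gastric lipases (2 of 2). It was 0.15 for the alpha-amylases (2 of 3), 0.15 for the membrane aminopeptidases (8 of 11) and 0.04 for the trypsins and chymotrypsins (3 of 5). The trypsin-3-like gene LOC121408720 (chr2:66622006-66630409), a serine protease, rose. It had 342, 384 and 386 normalized counts in K02288-treated embryos, 566, 550 and 532 in axitinib-treated embryos and 461, 376 and 356 in DMSO-treated embryos, so that the axitinib libraries stood above all others. The log2 fold change was 0.47 (SE 0.12, adjusted p = 0.021 with the mating), and the call was lost without the axitinib or DMSO library of mating 2 or 3 (adjusted p up to 0.191). The far more abundant trypsin-2-like gene LOC121406373 had 5008, 4589 and 2881 normalized counts in axitinib-treated embryos against 6855, 4677 and 3608 in DMSO-treated embryos, with overlap and no call. Of the starch and sugar enzymes, the alpha-amylase B-like gene LOC121426760 reached a log2 fold change of 0.48 (SE 0.13, adjusted p = 0.0444) and the probable maltase LOC121429020 reached 1.73 (SE 0.47, adjusted p = 0.0397), both with the mating. Both calls were lost without the axitinib or DMSO library of mating 2 or 3, and that of LOC121429020 also without axitinib replicate 1, with adjusted p up to 0.289 and 0.155. LOC121429020 was a low gene, with 43.0, 28.2 and 63.5 normalized counts in axitinib-treated embryos against 19.6, 1.77 and 25.1 in DMSO-treated embryos. No membrane aminopeptidase was called with either drug. LOC121411282, the aminopeptidase N-like gene, had 16020, 13886 and 14351 normalized counts in K02288-treated embryos, 15073, 14220 and 14216 in axitinib-treated embryos and 14197, 11898 and 12336 in DMSO-treated embryos, and its log2 fold changes with the mating were 0.20 (SE 0.09) and 0.18 (SE 0.09).

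Among lysosomal genes, LOC121410870 rose with axitinib. This procathepsin L-like gene at chr3:35090954-35098692 encodes a papain family cysteine protease with its inhibitory propeptide. It had 577, 406 and 566 normalized counts in K02288-treated embryos, 2542, 1908 and 2456 in axitinib-treated embryos and 496, 478 and 486 in DMSO-treated embryos. In axitinib-treated embryos it was therefore several times higher than in every other library, 4.73-fold higher than in DMSO-treated embryos, while K02288 and DMSO libraries overlapped. The log2 fold change with axitinib was 2.24 (SE 0.16, adjusted p = 0.00457) without the mating and 2.23 (SE 0.11, adjusted p = 3.93e-09) with it. With K02288 it was 0.08 (SE 0.18). It was the only one of the 151 genes with an adjusted p under 0.05 in the fit without the mating, where 0.0249% of all genes were higher, and it stayed between 2.16 and 2.35 when any 1 library was left out. In FPKM its level was 25.4 ± 4.68 in K02288-treated, 113 ± 17.2 in axitinib-treated and 24.0 ± 0.442 in DMSO-treated embryos (SD, n = 3). The neighboring procathepsin L-like gene LOC121410869 had too few counts to be tested.

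The 2 other cathepsin calls were smaller. LOC121410556 (chr3:23676927-23691901), the most abundant procathepsin L-like gene, had 19603, 17313 and 12175 normalized counts in K02288-treated embryos, 18986, 19177 and 15280 in axitinib-treated embryos and 16888, 13663 and 8431 in DMSO-treated embryos. The groups overlapped, but within each mating both drug libraries were above the DMSO library. With the mating its log2 fold change was 0.36 (SE 0.09, adjusted p = 0.0484) with K02288 and 0.50 (SE 0.12, adjusted p = 0.0145) with axitinib. It was not called without the mating, and of 6 fits without a library, 2 kept the call with K02288 (lost without either library of mating 2 or 3) and 4 with axitinib (lost without either library of mating 3). The cathepsin B-like gene LOC121416026 (chr1:51137245-51156131) had 1282, 922 and 1418 normalized counts in axitinib-treated embryos against 1124, 678 and 1050 in DMSO-treated embryos, with overlap, and a log2 fold change of 0.35 (SE 0.10, adjusted p = 0.0486) with the mating, lost without the axitinib or DMSO library of mating 2 or 3 (adjusted p up to 0.345). The 3 serine carboxypeptidases were all above 0 with axitinib. The probable serine carboxypeptidase CPVL gene LOC121426465 had 95.5, 86.5 and 102 normalized counts in axitinib-treated embryos against 64.1, 56.6 and 70.2 in DMSO-treated embryos, without overlap, at a log2 fold change of 0.58 (SE 0.22, adjusted p = 0.151 with the mating). It passed the unadjusted threshold without the mating, and that call was lost in all 6 fits without a library. Of the 14 lysosomal genes tested with axitinib, 3 were higher and none lower after adjustment with the mating, where 2.79% of all genes were higher and 3.44% lower. Of these 3 calls, only that of LOC121410870 was kept in all 6 fits without a library. Of the 15 tested with K02288, 13 were above 0, with a median log2 fold change of 0.21, and 1, LOC121410556, was called, where 1.83% of all genes were higher. The summed share of the 13 cysteine cathepsins was 0.227%, 0.203% and 0.169% of all counts in K02288-treated embryos, 0.240%, 0.235% and 0.221% in axitinib-treated embryos and 0.205%, 0.174% and 0.133% in DMSO-treated embryos. Most of this share was LOC121410556, and the axitinib libraries lay above all DMSO libraries. That gap rested on LOC121410870, and without its counts the shares of the axitinib and DMSO libraries overlapped.

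**Figure D4:**
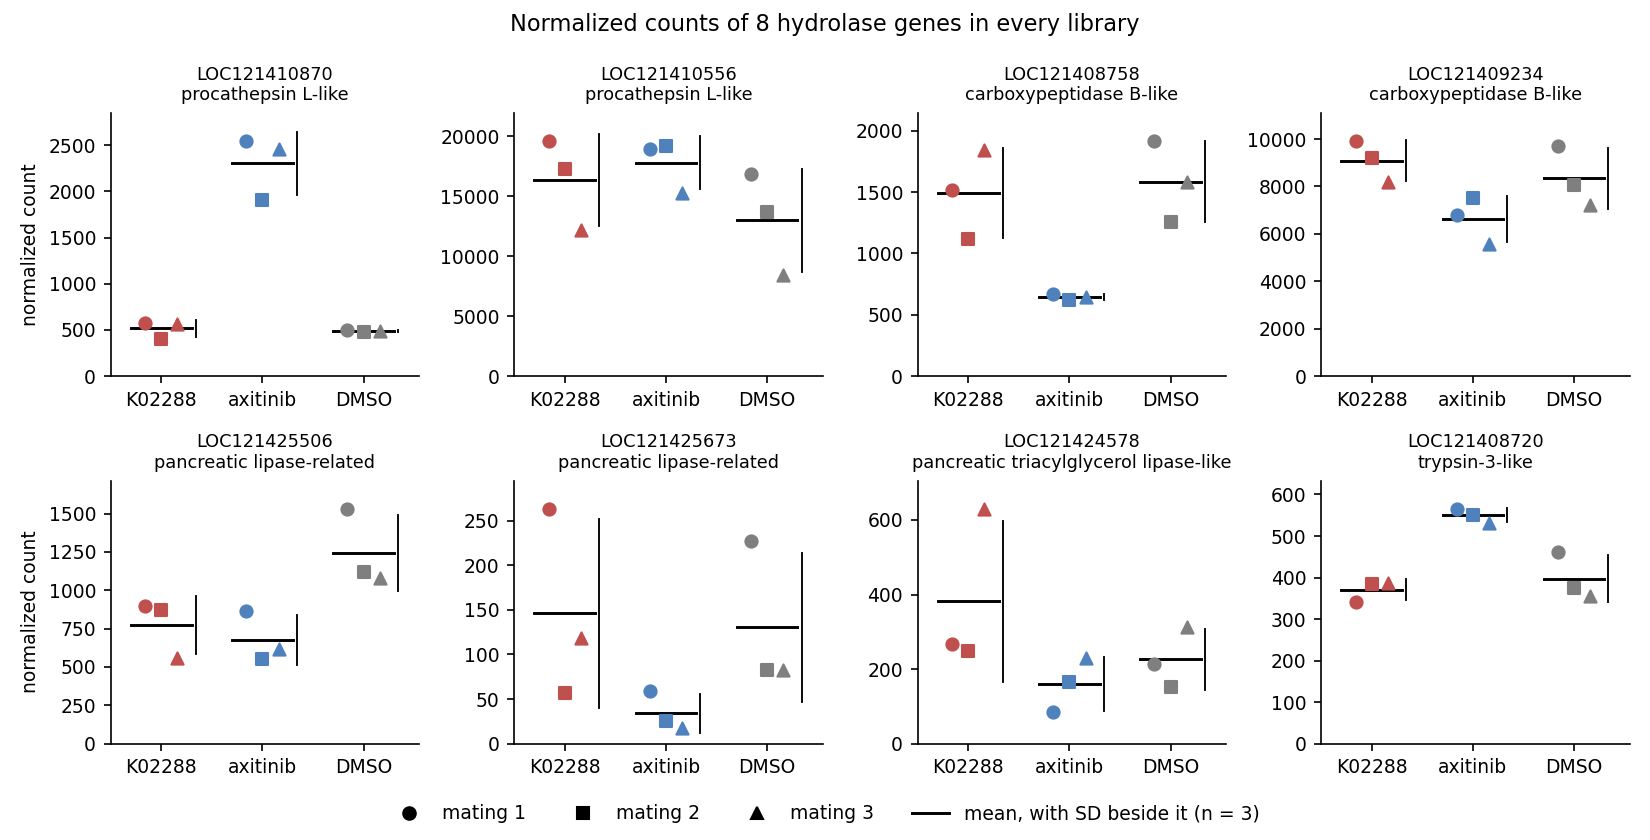
Normalized counts of 8 genes are shown for each library, with K02288, axitinib and DMSO from left to right, symbols for the mating, a bar for the mean of 3 and a line for the SD. The axitinib points of LOC121410870 lay at 1908 or more and those of LOC121408758 at 669 or less, clear of all other points; LOC121425506 was below DMSO with both drugs.

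The direct comparison tested where the drugs differed. Of the 61 digestive genes tested, 42 had a log2 fold change above 0 for K02288 against axitinib, 11 were higher at an adjusted p under 0.05 with the mating and 3 were lower. Of all 155 genes tested, 12 were higher and 3 lower in K02288-treated embryos without the mating and unadjusted, where 3.22% of all genes were higher and 1.77% lower. With the mating, 16 were higher and 6 lower after adjustment, against 5.06% and 3.1% of all genes, and 30 were higher and 16 lower unadjusted, against 10.4% and 9.19%. After adjustment without the mating only LOC121410870 was called, lower, where 0.0309% of all genes were lower and 0.123% higher. The K02288 libraries lay wholly above the axitinib libraries in 12 genes and wholly below in 7, where 5.46% and 4.63% of all genes did. The median log2 fold change was 0.37 for the pancreatic lipases, with 14 of 15 above 0, and 0.35 for the pancreatic-type carboxypeptidases, with 16 of 18 above 0, beside -0.01 over all genes. With the mating, 10 were higher without K02288 replicate 3 and 9 without axitinib replicate 3, and without it 5 were higher without K02288 replicate 3 and 6 without axitinib replicate 1, while 6 were lower without K02288 replicate 1 and 5 without K02288 replicate 3.

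In this comparison LOC121410870 was lower with K02288 at a log2 fold change of -2.16 (SE 0.20, adjusted p = 0.015 without the mating), and LOC121408758 was higher at 1.21 (SE 0.20, adjusted p = 0.133 without and 8.36e-06 with the mating). LOC121425673 differed by 2.04 (SE 0.27, adjusted p = 0.000155), LOC121424578 by 1.22 (SE 0.17, adjusted p = 0.000349), LOC121409234 by 0.46 (SE 0.07, adjusted p = 0.000695) and LOC121406373 by 0.43 (SE 0.11, adjusted p = 0.0193), all with the mating and all higher with K02288. The 3 sucrase-isomaltase genes, whose relatives split disaccharides at the gut surface, did not move together. LOC121429811 (chr16:25992525-26025629) had 1439, 1228 and 1846 normalized counts in K02288-treated embryos against 1002, 772 and 1201 in axitinib-treated embryos, without overlap, a log2 fold change of 0.60 (SE 0.08, adjusted p = 0.000293). LOC121429824 was also higher with K02288, at 0.37 (SE 0.08, adjusted p = 0.00761). LOC121429639 was lower with K02288, at -0.34 (SE 0.08, adjusted p = 0.0147), again with the mating. The cathepsin L-like gene LOC121418490 (chr7:13821422-13839773) was higher with K02288, with 1551, 1334 and 1511 normalized counts against 1022, 1171 and 1194 with axitinib, at 0.38 (SE 0.09, adjusted p = 0.0211). In fits without a library the calls of LOC121418490, LOC121429824 and LOC121429639 were kept in 3, 4 and 4 of 6, and that of LOC121429811 in 6 of 6.

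Digestive genes often differed between matings. With treatment in the fit of all 9 libraries, 94 of the 156 genes tested (60.3%) differed between matings at an adjusted p under 0.05 (edgeR), where 52.7% of all genes did. The share was 77% in the digestive genes (47 of 61), 66.7% in the lysosomal genes (10 of 15) and 46.2% in the other names (37 of 80). The median range between mating means was 0.83 log2 units for the digestive genes, 0.63 for the lysosomal genes and 0.56 over all genes. The 4 alpha-amylases and the 5 maltases and sucrases tested all differed between matings.

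The carboxypeptidase B-like gene LOC121408671 (chr2:65283928-65295817) had 177, 22 and 399 normalized counts in K02288-treated embryos, 231, 33.2 and 312 in axitinib-treated embryos and 272, 24.8 and 365 in DMSO-treated embryos. Mating 2 was low under every treatment, and the range between matings was 3.67 log2 units. LOC121408466 and LOC121408691, also carboxypeptidase B-like genes on chromosome 2, and the alpha-amylase-like gene LOC121410593 (chr3:25030433-25038970) were low in mating 2 under every treatment too, with ranges of 3.12, 2.20 and 1.68 log2 units. LOC121410593 had 922, 304 and 1023 normalized counts in K02288-treated embryos, 929, 314 and 1012 in axitinib-treated embryos and 1348, 362 and 1111 in DMSO-treated embryos. The procathepsin L-like gene LOC121427812 was high in mating 1, with 85.6, 73.5 and 70.7 normalized counts in its K02288, axitinib and DMSO libraries and at most 16 in the others. The chitinase-like protein gene LOC121415945 was nearly absent from mating 3, with 2.82 normalized counts or fewer in its libraries.

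In a pair of carboxypeptidase B-like genes on chromosome 2, 1 library set the change. LOC121408672 (chr2:65306510-65316177), next to LOC121408671, had 89.4, 175 and 173 normalized counts in K02288-treated embryos, 48.3, 68.4 and 267 in axitinib-treated embryos and 63.0, 81.3 and 1171 in DMSO-treated embryos. LOC121408692 (chr2:65813044-65822717), next to LOC121408691, had 26.9, 47.9 and 310 in K02288-treated embryos, 16.8, 214 and 108 in axitinib-treated embryos and 29.4, 68.1 and 1405 in DMSO-treated embryos. In both, DMSO replicate 3 was several times above every other library. With the mating, LOC121408672 was called lower with axitinib at a log2 fold change of -1.18 (SE 0.28, adjusted p = 0.0204) and LOC121408692 lower with K02288 at -1.40 (SE 0.28, adjusted p = 0.0103). Without DMSO replicate 3, the fits without the mating gave 0.83 and 1.39, the opposite direction, and the fits with the mating gave -0.31 and -0.35 and no call.

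**Figure D5:**
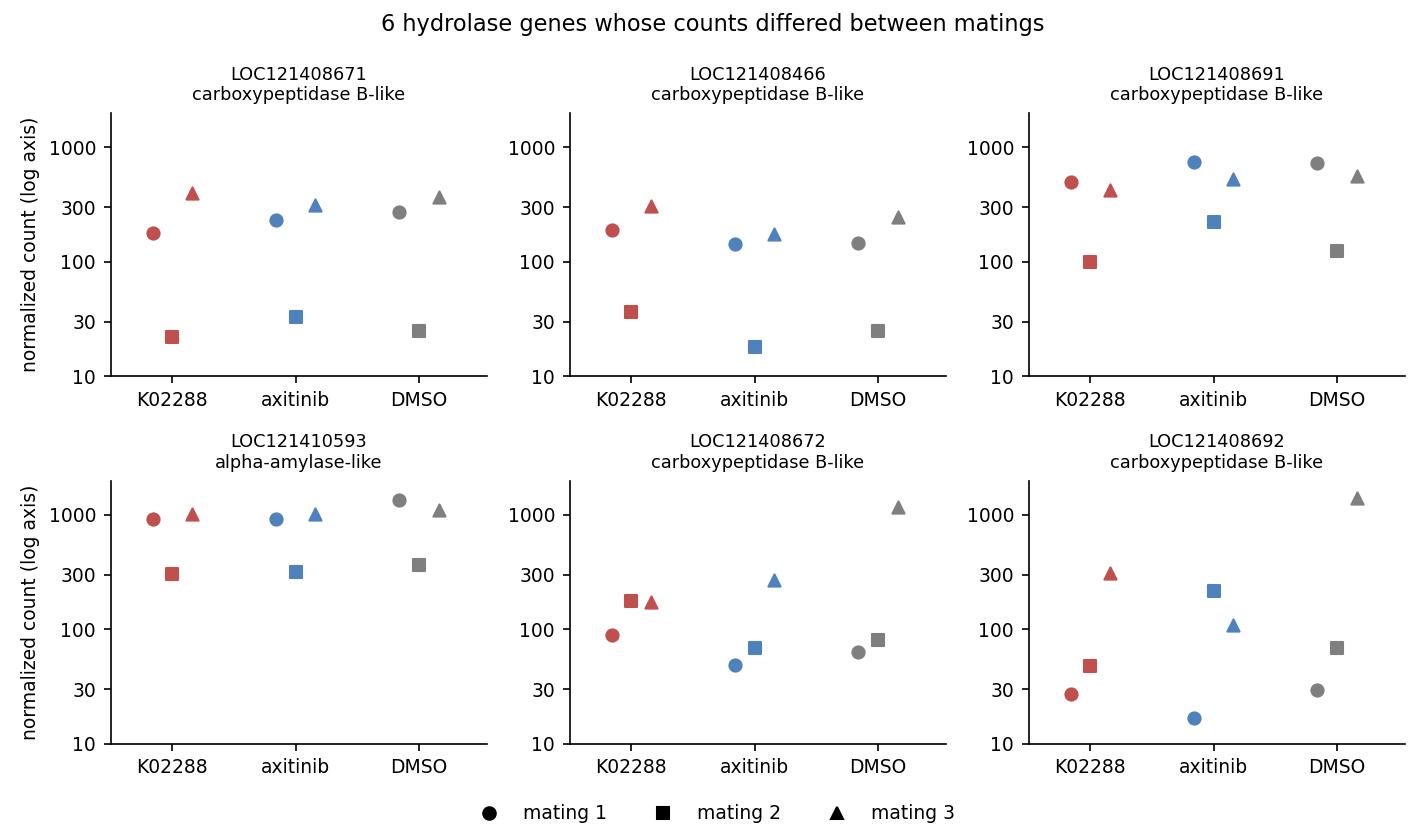
Normalized counts of 6 genes on a common log axis, with K02288, axitinib and DMSO from left to right and symbols for the mating. The squares of mating 2 lay lowest in LOC121408671, LOC121408466, LOC121408691 and LOC121410593 under every treatment, and in LOC121408672 and LOC121408692 the DMSO triangle of mating 3, at 1171 and 1405, stood apart from all other points.

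Among the 82 other names, the neurotrypsin-like gene LOC121413969 (chr4:37099817-37108333), which lists no trypsin domain, was lower with K02288 and higher with axitinib in the fits with the mating. It had 1222, 982 and 1023 normalized counts in K02288-treated embryos, 2699, 1975 and 2008 in axitinib-treated embryos and 2055, 1207 and 1614 in DMSO-treated embryos. The K02288 libraries lay below all axitinib libraries and overlapped the DMSO libraries. Its log2 fold change with the mating was -0.57 (SE 0.10, adjusted p = 0.00439) with K02288, 0.47 (SE 0.10, adjusted p = 0.00931) with axitinib and -1.04 (SE 0.08, adjusted p = 1.22e-06) for K02288 against axitinib. The axitinib call was lost without axitinib replicate 2 (adjusted p = 0.0534), while the call with K02288 and that between the drugs were kept in all 6 fits without a library. Without the mating, the unadjusted call with K02288 was lost without K02288 replicate 2, K02288 replicate 3, DMSO replicate 1 or DMSO replicate 3. The macrophage metalloelastase-like gene LOC121409093 (chr2:76669126-76688382), of the matrix metalloproteinases, had 609, 421 and 482 normalized counts in axitinib-treated embryos against 864, 758 and 835 in DMSO-treated embryos, without overlap, at -0.71 (SE 0.11, adjusted p = 0.000756). Another neurotrypsin-like gene, LOC121431784 (chr18:22712910-22731555), had 105, 131 and 149 in axitinib-treated embryos against 212, 246 and 188 in DMSO-treated embryos, likewise without overlap, at -0.75 (SE 0.17, adjusted p = 0.0132), a call lost without the axitinib or DMSO library of mating 1 or 2 (adjusted p up to 0.09). The tubulin enzymes, protease inhibitors and chitinase-named genes had no call at an adjusted p under 0.05 in the comparisons of either drug with DMSO.

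Marker genes were set beside these results. A list of 17 gut genes, 7 of them alkaline phosphatases and the rest transcription factors such as foxa, blimp1, cdx, hnf1, hnf4 and ptf1a, took 0.0750%, 0.0785% and 0.0640% of the counts in K02288-treated embryos, 0.0712%, 0.0768% and 0.0614% in axitinib-treated embryos and 0.0728%, 0.0744% and 0.0594% in DMSO-treated embryos. These ranges overlapped, and none of the 17 genes was without counts over the series. At an adjusted p under 0.05 with the mating, none of the 16 gut genes tested was called with K02288. Over all genes 1.05% were lower and 1.83% higher. With axitinib none of the 15 tested was lower and 1 was higher, where 3.44% and 2.79% of all genes were. The 1 called was the alkaline phosphatase-like gene LOC121409364, at a log2 fold change of 0.62 (adjusted p = 0.0495, edgeR). With K02288 the median of the gut genes was 0.21, and 10 of 16 were above 0. Unadjusted and with the mating, 4 were higher and 1 lower with K02288, where 7.26% and 5.9% of all genes were. The 19 primary mesenchyme genes, markers of the skeletogenic cells, took 0.394%, 0.402% and 0.329% of the counts in K02288-treated embryos, 0.316%, 0.282% and 0.233% in axitinib-treated embryos and 0.531%, 0.447% and 0.450% in DMSO-treated embryos, lower in every drug library.

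Other marker lists differed as well, and the genes named here were chosen after their values were seen. For K02288 against axitinib, 9 of the 16 gut genes tested were above 0 and 7 below. At an adjusted p under 0.05 with the mating, 4 gut genes were higher and none lower, where 5.06% of all genes were higher and 3.1% lower. These were the blimp1-like gene LOC121414107, the ptf1a-like gene LOC121426314, the hnf1-like gene LOC121408778 and the cdx-like gene LOC121414860. Their log2 fold changes were 0.62, 0.55, 0.48 and 0.49. Muscle genes were mostly below 0 with axitinib against DMSO (7 of 8 tested, median log2 fold change -0.18, no call). For K02288 against axitinib 7 of the 8 were above 0. Tropomyosin-like LOC121415027, troponin I-like LOC121421102 and troponin T-like LOC121421391 were called higher, where 5.06% of all genes were. Pigment cell genes were mostly above 0 with axitinib (7 of 9, median 0.26). Flavin-containing monooxygenase 5-like LOC121424842 was called (1 of 9 tested), where 2.79% of all genes were higher. LOC121424842 and LOC121429885 were called lower for K02288 against axitinib (2 of 9 tested), where 3.1% of all genes were. The summed shares of these lists overlapped between the drugs and DMSO. The 13 muscle genes took 0.297% to 0.330% of the counts in K02288-treated embryos, 0.255% to 0.307% in axitinib-treated embryos and 0.288% to 0.315% in DMSO-treated embryos. The 13 pigment cell genes took 0.0552% to 0.0805% in K02288-treated embryos, 0.0733% to 0.119% in axitinib-treated embryos and 0.0531% to 0.0827% in DMSO-treated embryos. Against DMSO, neuron genes had a median log2 fold change of -0.09 with K02288 and -0.08 with axitinib, and ciliated ectoderm genes one of -0.07 with K02288 and 0.07 with axitinib. Synaptotagmin-like LOC121413911 and LOC121406117 were called lower with K02288 (2 of 25 neuron genes tested), where 1.05% of all genes were. LOC121432000 was called lower with axitinib (1 of 23), where 3.44% of all genes were. Tektin-3-like LOC121423323 was called lower for K02288 against axitinib (1 of 22 ciliated ectoderm genes), where 3.1% of all genes were. Whether these shifts or that of the primary mesenchyme genes have a part in the changes of the hydrolase genes was not tested.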

How the data were processed

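RNA of whole embryos from 3 matings and 3 treatments was analysed in 9 libraries. The labels describe poly-A selection, and the study's methods describe strand-specific libraries mapped with HISAT2 to version 3.0 of the genome. The submitters' processing notes name CASAVA 1.8, HISAT2, DESeq and DESeq2. The version of HISAT2, the counting tool and its strand setting are not given in the sources used here, so reads of overlapping genes may have been shared. The authors deposited raw counts per gene and, separately, FPKM values scaled to gene length and library size. Gene lengths in those files were not used in tests. Columns were matched to samples by the replicate number and the abbreviated drug name.

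Counts were filtered with filterByExpr, normalized with TMM and tested with the quasi-likelihood test of edgeR 4.0.16 in R 4.3.3 on the 6 libraries of each comparison, over all genes, with Benjamini-Hochberg adjustment. A gene was called at an unadjusted p of at most 0.05 without the mating, the threshold of the study's methods, and at an adjusted p under 0.05 with the mating as a term. Normalized counts are counts per library scaled to TMM library sizes. The code was checked on simulated counts in which 200 genes were altered. Replicate numbers mark matings per the study's methods, and deviations from group means correlated at 0.706 to 0.750 within matings (9 pairs). Between libraries of different matings and treatments (18 pairs) they correlated at -0.420 to -0.327. Taking deviations from a mean of 3 libraries itself pushes these values below 0. Enzyme classes were set by words of the description. Genes were named when among the 8 lowest p in each direction of either fit (with the mating, only if all 3 matings moved alike), among the 2 highest FPKM of a class, or among the 6 lowest p between matings. LOC121410870 was always named. Alternatives were RLE scaling, other filters, DESeq2 1.42.0, all 9 libraries in 1 fit, limma 3.58.1 on log2(FPKM + 1), and fits without each library in turn. Figures were drawn with matplotlib 3.10.9. The members and lists were chosen with earlier results of these data known.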

Additional observations from a re-analysis of the deposited data

How the results depend on the processing

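With 3 libraries per treatment, most changes in these genes passed only once the mating was in the fit. At an unadjusted p of at most 0.05, the replicate block, which pairs libraries by mating, gave 7 lower and 16 higher genes for K02288 against DMSO, 25 and 19 for axitinib against DMSO, and 16 and 30 for K02288 against axitinib. At an adjusted p under 0.05 without the replicate block, 0 genes were lower and 0 higher for K02288 against DMSO, 0 lower and 1 higher for axitinib against DMSO, and 1 lower and 0 higher for K02288 against axitinib (edgeR). For K02288 against DMSO, limma on log2(FPKM + 1) gave 0 higher genes, and the fit of all 9 libraries with the replicate block gave 1. DESeq2 with the replicate block gave 5 higher genes for axitinib against DMSO. When 1 library was left out, which also takes its mating out of the paired comparison, K02288 against DMSO gave 0 to 2 lower and 0 to 4 higher genes without the block and 2 to 5 lower and 1 to 8 higher with it. Axitinib against DMSO gave 5 to 13 lower and 1 to 7 higher without the block and 5 to 14 lower and 2 to 10 higher with it. K02288 against axitinib gave 3 to 6 lower and 5 to 15 higher without the block and 5 to 6 lower and 9 to 23 higher with it. Without DMSO replicate 3 the fold change of LOC121408692 with K02288 became 1.39 and that of LOC121408672 with axitinib 0.83 (log2), each reversed, and over all omissions they ran from -3.75 to 1.39 and from -2.91 to 0.83. The values of single genes without the block included some that were not called. RLE scaling kept the direction and the side of the unadjusted threshold in all 41. Leaving out a library kept both in 187 fits, lost the call in 52, gained a call in 5 and reversed the direction in 2. The causes of these differences were not tested. Of the 169 genes, 14 had too few counts for a test in any comparison.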

Other observations

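A list of 189 related digestive and lysosomal genes that the names above do not cover (arylsulfatases, legumain, glycosidases, dipeptidyl peptidases, phospholipases A2, alkaline phosphatases and others) took 1.46%, 1.63% and 1.44% of all counts in K02288-treated embryos, 1.605%, 1.79% and 1.66% in axitinib-treated embryos and 1.23%, 1.38% and 1.21% in DMSO-treated embryos. All drug libraries were above all DMSO libraries, but that gap came from 1 arylsulfatase-like gene, LOC121415367, which held much of the share. Without its counts the shares of the drug and DMSO libraries overlapped. LOC121415367 had 79094, 95429 and 79256 raw counts in K02288-treated embryos, 87467, 104382 and 84457 in axitinib-treated embryos and 42945, 68283 and 47422 in DMSO-treated embryos. Its log2 fold change with the mating was 0.62 with K02288 (adjusted p = 0.00122, edgeR) and 0.90 with axitinib (adjusted p = 2.4e-05). With the mating, 2 of the 150 related genes tested were lower and 5 higher with K02288, and 8 of 144 were lower and 9 higher with axitinib, at an adjusted p under 0.05. The background over all genes was 1.05% and 1.83% with K02288 and 3.44% and 2.79% with axitinib. The median log2 fold change of the related genes tested was 0.04 with K02288 and 0.09 with axitinib, beside 0.01 over all genes in each.

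The genes named next were chosen after their values were seen. Legumain is an asparagine-specific protease of lysosomes. The legumain-like gene LOC121419078 rose with both drugs, with 1267, 1013 and 1378 raw counts in K02288-treated embryos, 1203, 1159 and 1246 in axitinib-treated embryos and 886, 817 and 835 in DMSO-treated embryos. The log2 fold change was 0.44 (adjusted p = 0.0174) with K02288 and 0.58 (adjusted p = 0.00223) with axitinib. Dipeptidyl peptidase 1, also called cathepsin C, is a lysosomal cysteine protease, and LOC121410963 rose by 0.50 with axitinib (adjusted p = 0.0255). Arylsulfatases remove sulfate from sugars and lipids, and not all moved as LOC121415367 did. LOC121427609, arylsulfatase B-like, had 222, 349 and 218 raw counts in K02288-treated embryos, 60, 162 and 70 in axitinib-treated embryos and 323, 491 and 283 in DMSO-treated embryos, and fell by 1.89 on the log2 scale with axitinib (adjusted p = 9.02e-06). LOC121411879 had a log2 fold change of -1.30 with axitinib against DMSO (adjusted p = 1.78e-05, edgeR). It was 1.37 higher with K02288 than with axitinib on the log2 scale (adjusted p = 9.14e-08). All values come from fits with the mating, and both drugs share the 3 DMSO libraries.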
